A study of Mus musculus with 8 samples.

Results

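Untreated bone marrow-derived dendritic cells (DCs) from GEF-H1-/- mice were compared with untreated DCs from wild-type (WT) mice, by the FPKM of each gene, a level that allows for the length of the transcript and the depth of the library. Genes entered the comparison when both groups carried the status OK of the program Cuffdiff and at least 1 group reached 1 FPKM, and microRNA and snoRNA genes were left out. This kept 11133 of the 23356 genes in the deposited table. The study sequenced 8 libraries in 4 groups of 2, namely WT and GEF-H1-/- DCs without treatment and both after 5 h with 100 nM ansamitocin-P3, a maytansine-type drug that destabilizes microtubules. The mice were C57BL/6 by the labels and C57BL/6N by the study's methods, which also give an age of 8 to 16 weeks, matched sexes, and WT animals that were bred in-house or bought. GEF-H1-/- mice carried the knockout allele in the germ line, so the marrow donors as well as the cultured cells were mutant. All cells were grown from bone marrow for 6 days with GM-CSF and IL-4, each at 10 ng/ml, and the floating and loosely attached cells were taken without a sort for DCs. The number of mice behind a library and a shared culture day of WT and GEF-H1-/- cells were not given in the sources used here.

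Each group had 1 pooled FPKM per gene, with the bounds of the 95% confidence interval that Cuffdiff gave, and the value of each library is not part of this table. The spread between the 2 libraries of a group could therefore not be measured, and no test was run. Differences are given as log2 (GEF-H1-/- minus WT) of FPKM + 1, which understates the difference of genes with low FPKM. The depth of the libraries is unknown. In WT DCs the median interval was 45.3% of the FPKM wide and the summed FPKM of all genes was 609360. The same measures were 45.4% and 599331 in GEF-H1-/- DCs. For 108 of the tested genes the FPKM lay outside its own interval in at least 1 of the groups compared, which is stated where such a gene is named.

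GEF-H1 is a guanine nucleotide exchange factor that loads the small GTPase RhoA with GTP. It is held inactive on microtubules and is set free when they depolymerize, and in macrophages it also takes part in innate immune signaling. GM-CSF cultures of mouse marrow yield a mixture of DC-like and macrophage-like cells together with granulocytes at several stages of maturation.

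The labelled cell type was first checked against its markers. *Itgax*, the gene for CD11c, was at 102 FPKM (81.01 to 123) in WT versus 129 (102 to 157) in GEF-H1-/- DCs, and *H2-Aa*, a chain of MHC class II, at 925 FPKM in WT versus 762 in GEF-H1-/- DCs. *Ccr7*, the receptor that guides mature DCs to lymph nodes, was at 258 FPKM in WT versus 234 in GEF-H1-/- DCs. *Zbtb46*, a transcription factor of conventional DCs, was at 14.8 FPKM (11.6 to 18.1) in WT versus 9.09 (6.74 to 11.7) in GEF-H1-/- DCs, with overlapping intervals. Of 23 markers of conventional DCs, 19 passed the filter, and *Clec9a*, *Xcr1*, *Btla* and *Cd207* did not. In 15 of the 19 the intervals of the groups overlapped, *Cd209a* and *Nav1* were higher and *Kmo* and *Sept3* lower in GEF-H1-/- DCs, and the median difference was 0.01. The cultures were not pure, since the neutrophil calprotectin genes *S100a8* and *S100a9* ranked among the highest FPKM in both groups (19401 and 10678 in WT DCs, the former above its own interval). The table holds RNA of all cells together, so that fewer cells of a type and less RNA per cell cannot be told apart in any difference given here.

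*Arhgef2*, the gene that encodes GEF-H1 (chr3:88616207-88648052, GRCm38), was at 42.3 FPKM (34.5 to 49.98) in WT versus 4.59 (3.54 to 5.63) in GEF-H1-/- DCs, a log2 difference of -2.95. The residual FPKM in GEF-H1-/- DCs was above 0 at the lower bound of its interval, and the part of the transcript it came from was not analysed here. Among 27 tested guanine nucleotide exchange factors of its family, only *Arhgef2* and *Mcf2l*, another factor of the same family, had separate intervals. *Mcf2l* was higher, at 7.13 FPKM (5.76 to 8.498) in WT versus 12.6 (9.82 to 15.4) in GEF-H1-/- DCs. None of 26 small GTPases and effectors and none of 21 signaling partners of GEF-H1 had separate intervals, and their medians were -0.02 and -0.03. Separate intervals held for 4.66% of all tested genes, so that lists of this size would hold few in any case. The abundant actin-severing factor *Cfl1* was at 1459 FPKM in WT versus 1508 in GEF-H1-/- DCs, and the kinase gene *Mapk3* at 80.2 FPKM in WT versus 85.4 in GEF-H1-/- DCs. *Irf5*, a transcription factor of innate immune signaling, was at 289 FPKM (229 to 348) in WT versus 253 (189.6 to 317) in GEF-H1-/- DCs.

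Over all tested genes the median difference was -0.01, and 93.3% lay within 0.5 of 0. Differences over 1 or under -1 together with separate intervals, called both rules from here on, were found for 163 genes (1.46% of the 11133 tested), of which 110 (0.988%) were higher and 53 (0.476%) lower in GEF-H1-/- DCs. Separate intervals alone held for 519 genes (4.66%), 311 of them higher (2.79%) and 208 lower (1.87%). The difference alone was past 1 in 173 genes (1.55%), 118 of them higher (1.06%) and 55 lower (0.494%), and 10 of these had overlapping intervals, among them *Timp1*, *Ccl12* and *Elane*. Of the 110 higher genes, 33 were under 1 FPKM in WT DCs and thus passed the filter through the group in which they were high, and 6 of the 53 lower genes were under 1 FPKM in GEF-H1-/- DCs. A difference past 2 or -2 was found for 11 higher and 8 lower genes. Just outside the threshold were *Gzmb* and *Ceacam10* (-0.9996 and -0.997) and *Stac2* (0.99), and just inside it *Aldh1a1* (1.01), *Cd38* (-1.01) and *Lyve1* (1.01).

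**Figure D1:**
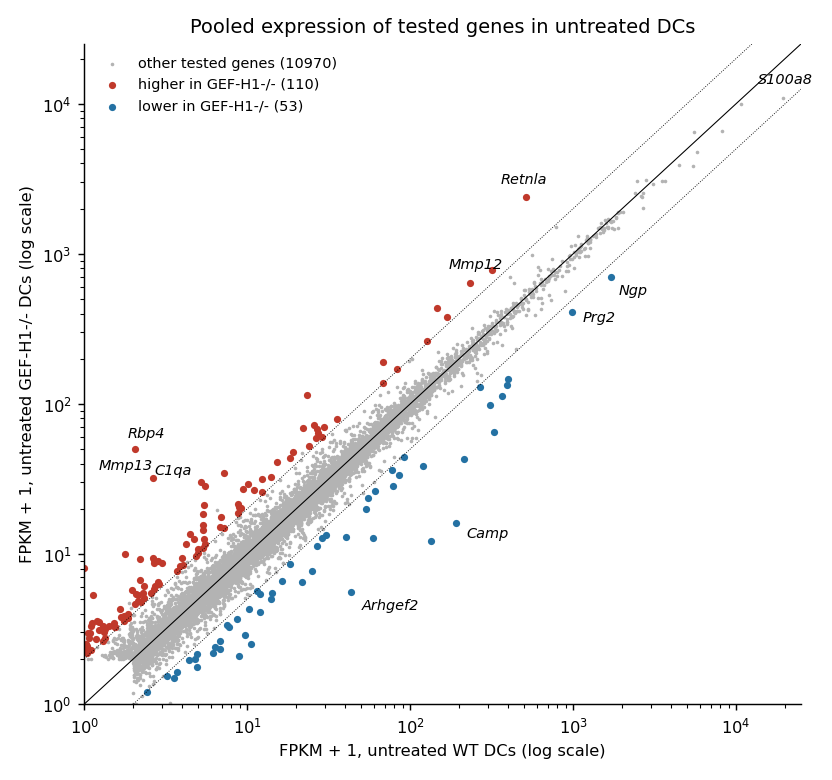
FPKM + 1 of the 11133 tested genes in untreated WT DCs (x axis, log scale) against untreated GEF-H1-/- DCs (y axis, log scale), 1 point per gene, with equality as a solid line and 2-fold differences as dotted lines. Most genes lie along the solid line, the 110 genes higher by both rules are red and the 53 lower genes are blue, with *Rbp4* farthest above and *Camp* and *Arhgef2* far below it.

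The largest difference upward was that of *Rbp4*, which encodes a carrier of retinol in plasma (chr19:38116620-38125321). It was at 1.052 FPKM (0.569 to 1.52) in WT versus 49.4 (37.4 to 61.4) in GEF-H1-/- DCs, a log2 difference of 4.62. *Mmp13*, a collagenase, was at 1.63 FPKM (1.16 to 2.09) in WT versus 31.2 (24.8 to 37.5) in GEF-H1-/- DCs (3.62). *Ccl8*, a chemokine that attracts monocytes, was listed at 0 in WT and at 7.06 FPKM (3.901 to 8.496) in GEF-H1-/- DCs, so that no fold is given. The intervals of these genes lay far apart, and each was close to the lower end of detection in WT DCs. At a higher level, *Retnla*, a secreted protein of alternatively activated macrophages, was at 509.99 FPKM (328 to 527) in WT versus 2397 (1546 to 2503) in GEF-H1-/- DCs (2.23). *Car4*, a membrane-bound carbonic anhydrase chosen after its values were seen, was at 144 FPKM (118 to 171) in WT versus 433 (354 to 513) in GEF-H1-/- DCs (1.58). *Fn1*, the matrix protein fibronectin, was at 4.53 FPKM (3.47 to 5.58) in WT versus 27.2 (20.6 to 35.1) in GEF-H1-/- DCs (2.35). Further among the 15 largest differences upward were *Ch25h* (2.51), *Mucl1* (1.96), *Cav1* (1.78), *Msx3* (1.77), *Bcam* (1.703) and *Cd300ld* (1.66). *LOC100038947* (2.08) is one of several related SIRP-type genes on chromosome 3 whose reads may be shared.

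On the other side, *Camp*, the gene for the antimicrobial cathelicidin of neutrophil granules (chr9:109847377-109849456), was at 189 FPKM (128 to 206) in WT versus 14.98 (9.61 to 18.05) in GEF-H1-/- DCs, and its difference of -3.57 was farther from 0 than that of *Arhgef2*. *Cfb*, complement factor B, was at 9.57 FPKM (7.51 to 11.6) in WT versus 1.498 (0.992 to 2.02) in GEF-H1-/- DCs (-2.08). *Calcb*, which encodes a calcitonin gene-related peptide, was at 8.67 FPKM (5.89 to 11.1) in WT versus 1.87 (1.11 to 2.62) in GEF-H1-/- DCs (-1.75). In each of these the whole interval of WT DCs lay above that of GEF-H1-/- DCs. *Penk*, the precursor of enkephalin peptides, was at 11.001 FPKM (8.69 to 13.3) in WT versus 3.11 (2.26 to 3.95) in GEF-H1-/- DCs (-1.55). *Lrg1*, a secreted leucine-rich glycoprotein, was at 39.4 FPKM (27.1 to 47.02) in WT versus 11.98 (7.99 to 13.7) in GEF-H1-/- DCs (-1.64). *Tspan7*, *Gzmc*, *Cp* and *Dclk1* were lower by -1.73, -1.69, -1.51 and -1.47 on the log2 scale.

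**Figure D2:**
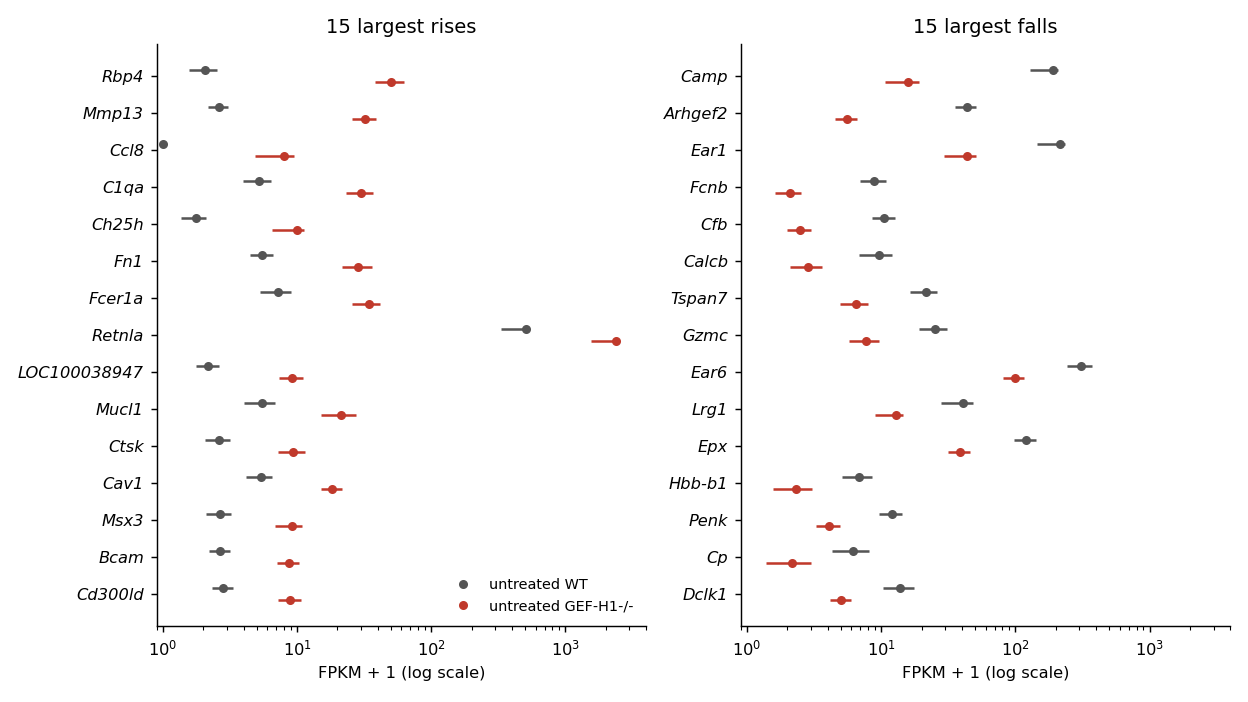
FPKM + 1 (x axis, log scale) of the 15 genes farthest above (left) and the 15 farthest below WT (right) among genes past both rules with at least 5 FPKM in the higher group. Points are the pooled values in untreated WT (grey) and untreated GEF-H1-/- (red) DCs and lines their 95% Cuffdiff intervals, which do not overlap for any of these genes. *Ccl8* sits at the left edge because it is listed at 0 in WT DCs.

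Macrophage genes were higher in GEF-H1-/- DCs. Of 17 tested members, 9 had separate intervals upward and none downward, 5 passed both rules, and the median was 0.73. The 3 chains of complement C1q, made by resident macrophages and neighbours on chromosome 4, were all higher. *C1qa* was at 4.22 FPKM (2.95 to 5.45) in WT versus 29.2 (22.2 to 36.1) in GEF-H1-/- DCs. *C1qb* was at 25.97 FPKM (19.9 to 31.95) in WT versus 67.4 (52.4 to 81.4) in GEF-H1-/- DCs, and *C1qc* at 14.2 FPKM (10.5 to 17.8) in WT versus 40.1 (30.3 to 49.3) in GEF-H1-/- DCs. *Gpnmb*, a glycoprotein of lysosome-rich macrophages, was at 21.1 FPKM (17.3 to 24.98) in WT versus 68.3 (55.8 to 80.7) in GEF-H1-/- DCs (1.65). Over 14 complement genes, 4 were higher (the C1q chains and *Serping1*) and *Cfb* lower with separate intervals. *Maf*, a transcription factor that macrophages express, was higher with separate intervals but did not pass 1 (0.84). Not every macrophage gene was higher. The F4/80 gene *Emr1* was at 35.9 FPKM in WT versus 36.9 in GEF-H1-/- DCs, *Csf1r*, the receptor for the growth factor M-CSF, at 84.9 FPKM in WT versus 91.3 in GEF-H1-/- DCs, *Trem2* at 52.2 FPKM in WT versus 52.2 in GEF-H1-/- DCs and *Apoe* at 20.02 FPKM in WT versus 19.5 in GEF-H1-/- DCs, all with overlapping intervals. *Cd163*, *Marco* and *Vsig4*, genes of tissue macrophages, did not reach 1 FPKM in either group.

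Genes that respond to IL-4, which was present in the medium of both groups, were less uniform. Of 23 tested, 7 had separate intervals upward and none downward, 4 passed both rules, and the median was 0.11. *Retnla* and *Ch25h*, given above, belong to this list, as do *Ear11* at 315 FPKM (211 to 338) in WT versus 784 (524 to 842) in GEF-H1-/- DCs and *Tgm2*, a transglutaminase, at 67.1 FPKM (53.1 to 81.2) in WT versus 189.7 (148 to 232) in GEF-H1-/- DCs. *Arg1* (309.7 FPKM in WT versus 382 in GEF-H1-/- DCs), *Mgl2* (831 FPKM in WT versus 822 in GEF-H1-/- DCs) and *Ccl17* (5778 FPKM in WT versus 4802 in GEF-H1-/- DCs), other genes that IL-4 induces, had overlapping intervals. Among 10 genes of osteoclasts and cell fusion, 4 were higher with separate intervals, none lower, and the median was 0.63. *Ctsk*, the bone-resorbing cathepsin K, was at 1.62 FPKM (1.08 to 2.15) in WT versus 8.36 (6.28 to 10.4) in GEF-H1-/- DCs. *Ocstamp*, which promotes fusion of osteoclast precursors, was at 17.2 FPKM (12.5 to 20.6) in WT versus 42.6 (30.6 to 49.5) in GEF-H1-/- DCs, while *Dcstamp*, its partner in fusion, was at 55.7 FPKM in WT versus 55.6 in GEF-H1-/- DCs.

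Matrix, protease and coagulation genes showed one of the broadest shifts. Of 29 tested, 16 had separate intervals upward and 1 downward, 11 and 1 passed both rules, and the median was 0.76. *Mmp12*, the macrophage elastase, was at 233 FPKM (180.4 to 282) in WT versus 635 (489.6 to 777) in GEF-H1-/- DCs (1.45). *Mmp9*, a gelatinase, was at 66.7 FPKM (53.9 to 79.3) in WT versus 138 (111 to 164) in GEF-H1-/- DCs, and *Mmp14*, a membrane-bound protease that activates others, at 4.46 FPKM (3.45 to 5.48) in WT versus 11.6 (9.25 to 13.9) in GEF-H1-/- DCs. *Spp1*, which encodes osteopontin, was at 166 FPKM (132 to 201) in WT versus 377 (289 to 483) in GEF-H1-/- DCs. *Mmp2*, the second gelatinase, was the exception and was lower, at 3.899 FPKM (3.04 to 4.75) in WT versus 0.761 (0.524 to 0.991) in GEF-H1-/- DCs (-1.48). *Timp1*, an inhibitor of these proteases, had a difference of 1.61 but wide, overlapping intervals, at 5.49 FPKM (0.732 to 10.3) in WT versus 18.8 (7.69 to 29.9) in GEF-H1-/- DCs.

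Part of this list are genes of connective tissue cells. A list of 23 genes of fibroblasts and stroma, written after the values were seen, had 12 members past the filter, and 11 of them were higher with separate intervals, 10 by both rules. The FPKM of all 23 listed genes summed to 3.98 in WT DCs and to 30.6 in GEF-H1-/- DCs. *Mgp*, an inhibitor of calcification made by stromal cells, was at 0.138 FPKM (0 to 0.3698) in WT versus 4.36 (2.37 to 5.69) in GEF-H1-/- DCs. *Sparc*, a matrix glycoprotein, was at 0.1104 FPKM (0.0193 to 0.193) in WT versus 2.47 (1.83 to 3.102) in GEF-H1-/- DCs, and *Col1a2*, a chain of collagen I, at 0.0895 FPKM (0.0345 to 0.138) in WT versus 1.96 (1.51 to 2.41) in GEF-H1-/- DCs. The levels were low, and 11 of the 12 members passed the filter through GEF-H1-/- DCs alone. *Dpt* was listed at 0 in both groups, *Lum* at 0 in WT DCs, and *Pdgfra* and *Postn* did not reach 1 FPKM in either group. The part of such cells in the higher matrix genes was not tested, and in which of the 2 GEF-H1-/- libraries they were present cannot be told from pooled values.

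Among 22 tested chemokines, 10 had separate intervals upward and none downward, 9 of them past both rules, and the median was 0.74. The monocyte attractants *Ccl2* and *Ccl7*, neighbours of *Ccl8* on chromosome 11, were at 34.8 FPKM (23.6 to 41.9) in WT versus 78.9 (54.1 to 87.9) in GEF-H1-/- DCs and at 10.03 FPKM (6.43 to 12.2) in WT versus 25.8 (17.2 to 31.2) in GEF-H1-/- DCs. *Ccl9*, made by myeloid cells, was at 125 FPKM (85.2 to 136) in WT versus 262 (176 to 284) in GEF-H1-/- DCs. The chemokines with the highest FPKM did not follow them. *Ccl17* and *Ccl22*, which attract T cells to mature DCs, were at 5778 FPKM in WT versus 4802 in GEF-H1-/- DCs and at 2685 FPKM in WT versus 2010.1 in GEF-H1-/- DCs, and *Ccl5* was at 492 FPKM in WT versus 431 in GEF-H1-/- DCs with its FPKM above its own interval in both groups. Of 11 chemokine receptors, 3 were higher by both rules, namely *Cxcr1* (1.596), *Ccr3* (1.14) and *Cmklr1* (1.04).

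*Pf4* and *Ppbp*, stored in platelet granules, were among the higher chemokines. *Pf4* was at 24.5 FPKM (14.6 to 27.05) in WT versus 70.9 (43.2 to 75.7) in GEF-H1-/- DCs, and *Ppbp* at 18.04 FPKM (11.2 to 20.6) in WT versus 47.1 (30.5 to 53.04) in GEF-H1-/- DCs. A list of 18 megakaryocyte and platelet genes, also written after the values were seen, had 16 members past the filter, 10 with separate intervals upward and none downward, a median of 0.76, and a summed FPKM of 107 in WT DCs and of 224 in GEF-H1-/- DCs. *Itga2b*, the platelet integrin chain CD41, was at 7.91 FPKM (6.38 to 9.45) in WT versus 19.5 (15.9 to 23.1) in GEF-H1-/- DCs, and *Gp9*, a subunit of the von Willebrand factor receptor, at 1.86 FPKM (1.09 to 2.62) in WT versus 5.32 (3.496 to 7.101) in GEF-H1-/- DCs. *Itgb3*, the partner chain of *Itga2b* that macrophages also express, was at 25.4 FPKM in WT versus 24.9 in GEF-H1-/- DCs. The part of platelet-lineage cells in the chemokine difference was not tested.

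Basophil and mast cell genes were higher as a group. Of 14 tested, 10 had separate intervals upward and none downward, 4 passed both rules, and the median was 0.67. The FPKM of all 19 listed genes summed to 232 in WT DCs and to 438 in GEF-H1-/- DCs. *Fcer1a*, the IgE-binding chain of the high-affinity IgE receptor, was at 6.25 FPKM (4.32 to 8.07) in WT versus 33.5 (24.9 to 40.7) in GEF-H1-/- DCs (2.25), and *Ms4a2*, its beta chain, at 5.97 FPKM (4.66 to 7.29) in WT versus 12.7 (10.2 to 15.1) in GEF-H1-/- DCs. *Prss34*, a basophil protease, was at 82.02 FPKM (62.9 to 100.5) in WT versus 171 (132 to 209) in GEF-H1-/- DCs. *Il4*, a cytokine that basophils secrete, was at 1.28 FPKM (0.5803 to 2.03) in WT versus 4.49 (2.87 to 6.11) in GEF-H1-/- DCs. The basophil protease *Mcpt8* was at 63.5 FPKM (45.5 to 78.7) in WT versus 96.98 (69.8 to 113) in GEF-H1-/- DCs, with overlapping intervals. The mast cell protease genes *Mcpt1*, *Mcpt2*, *Mcpt4* and *Tpsb2* stayed under 1 FPKM and *Tpsab1* was listed at 0 in both groups.

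Eosinophil genes were lower, and of the 52 gene lists used they had the highest share of members past both rules. The lists were chosen with earlier results of these data known, so that this rank is a description only. Of 8 tested, 5 were lower and 1 higher by both rules, and the median was -1.22. *Prg2*, the major basic protein of eosinophil granules (chr2:84980461-84983632), was at 984 FPKM (744 to 1200.0) in WT versus 411 (315 to 505) in GEF-H1-/- DCs. *Epx*, eosinophil peroxidase, was at 118 FPKM (95.9 to 140.4) in WT versus 37.4 (30.3 to 44.5) in GEF-H1-/- DCs, and *Prg3*, a homolog of *Prg2* next to it on chromosome 2, at 27.6 FPKM (21.99 to 33.3) in WT versus 11.7 (8.96 to 14.4) in GEF-H1-/- DCs. The granule ribonuclease *Ear1* was at 213 FPKM (144 to 231) in WT versus 42.3 (28.2 to 50.1) in GEF-H1-/- DCs, and *Ear6* at 307 FPKM (243 to 372) in WT versus 97.6 (79.3 to 116) in GEF-H1-/- DCs. *Ear2*, of the same family, was at 663 FPKM in WT versus 617 in GEF-H1-/- DCs with overlapping intervals, and *Ear11* was higher, as given above. The surface markers of eosinophils did not go with the granule genes, since *Siglec5* was at 15.8 FPKM in WT versus 24.1 in GEF-H1-/- DCs and *Ccr3* at 0.753 FPKM in WT versus 2.86 in GEF-H1-/- DCs, both higher in GEF-H1-/- DCs, and *Il5ra* was under 1 FPKM in both groups.

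The *Ear* genes are close copies, and reads may be shared between them, so that the value of each is uncertain. Their similarity extends upstream, where the 250 bases before the starts of *Ear1* (chr14:43819640-43819889, minus strand) and *Ear6* (chr14:51853518-51853767, plus strand) are identical at 212 of 229 aligned positions (92.6%). They are shown 5′ to 3′ from RefSeq on GRCm38.p6, with bases in capitals where the aligned copy differs or has a gap.
Ear1: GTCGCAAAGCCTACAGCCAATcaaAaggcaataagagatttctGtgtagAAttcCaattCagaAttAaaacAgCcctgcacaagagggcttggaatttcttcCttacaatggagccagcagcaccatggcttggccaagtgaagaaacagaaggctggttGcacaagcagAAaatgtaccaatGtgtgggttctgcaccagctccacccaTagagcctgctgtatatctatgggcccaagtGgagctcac
Ear6: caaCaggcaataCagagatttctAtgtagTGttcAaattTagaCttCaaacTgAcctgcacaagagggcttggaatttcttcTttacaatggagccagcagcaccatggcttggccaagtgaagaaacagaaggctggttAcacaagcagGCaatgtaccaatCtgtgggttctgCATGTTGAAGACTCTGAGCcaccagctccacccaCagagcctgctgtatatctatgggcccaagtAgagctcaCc
Neither held any of the motifs searched below.

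Genes of neutrophils did not all go the same way. Over a list of 20 neutrophil genes, 5 had separate intervals in each direction and the median was 0.11. *Mmp9*, a member of this list given above, was higher by both rules (1.04). A group of 8 genes of secondary and tertiary granules was formed after the values were seen, without *Mmp9*, which is also a gene of tertiary granules. Of these 8 genes, 4 were lower by both rules and none higher, which holds only because *Mmp9* was left out. The median of the 8 genes was -0.97. Besides *Camp*, the lower genes were *Ltf*, the iron-binding lactoferrin, at 399 FPKM (326 to 473) in WT versus 145 (118 to 171) in GEF-H1-/- DCs, *Ngp*, neutrophilic granule protein, at 1707 FPKM (1286 to 2105) in WT versus 702 (535 to 863) in GEF-H1-/- DCs, and *Fcnb*, ficolin B, at 7.91 FPKM (5.97 to 9.84) in WT versus 1.08 (0.626 to 1.54) in GEF-H1-/- DCs. *Lcn2*, lipocalin 2, was at 886 FPKM in WT versus 562 in GEF-H1-/- DCs, and *Mmp8*, the neutrophil collagenase, at 55.2 FPKM in WT versus 72.3 in GEF-H1-/- DCs, with overlapping intervals. Among 5 genes of primary granules, which form earlier in maturation, 2 were higher with separate intervals and none lower. This group too was formed after the values were seen, so the contrast between the granule groups is a description only. *Mpo*, myeloperoxidase, was at 26.4 FPKM (21.3 to 31.4) in WT versus 63.1 (50.96 to 75.2) in GEF-H1-/- DCs, and *Ctsg*, cathepsin G, at 27.7 FPKM (20.6 to 34.5) in WT versus 49.4 (36.8 to 59.9) in GEF-H1-/- DCs. *Elane* was at 20.7 FPKM in WT versus 45.9 in GEF-H1-/- DCs, but the locus the table gives for it spans several genes and its intervals reach 0. *Csf3r*, the receptor for the neutrophil growth factor G-CSF, was higher, at 11.3 FPKM (8.996 to 13.5) in WT versus 30.7 (23.8 to 38.4) in GEF-H1-/- DCs, and *S100a8* was lower at 19401 FPKM in WT versus 10856 in GEF-H1-/- DCs, with values above their own intervals in both groups.

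The stefin genes, which encode inhibitors of cysteine proteases and are strongly expressed in neutrophils, were lower throughout one locus. Between 36156811 and 36455392 on chromosome 16, 7 of 9 tested genes were lower by both rules and none higher. *Stfa3* was at 133 FPKM (68.8 to 120.2) in WT versus 11.2 (5.27 to 11.1) in GEF-H1-/- DCs (-3.46). *BC100530* was at 327 FPKM (174 to 280.4) in WT versus 64.4 (33.6 to 60.5) in GEF-H1-/- DCs, and *Stfa2* at 365 FPKM (197 to 318) in WT versus 111 (60.3 to 106) in GEF-H1-/- DCs. For these genes and for *Stfa1*, *Stfa2l1* and *Gm5483* the FPKM lay outside its own interval in at least 1 group, and reads may be shared between such close copies, so that single values are uncertain. Stefins and cystatins outside the locus were closer to 0, with *Cst3* at 5412 FPKM in WT versus 3874 in GEF-H1-/- DCs and *Cstb* at 353 FPKM in WT versus 336 in GEF-H1-/- DCs. Owing to this locus, chromosome 16 had the highest share of genes past both rules of any chromosome (4.13% of 363 tested, 4 higher and 11 lower).

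Lymphoid genes tended to be lower. Of 12 tested genes of T and NK cells, 3 had separate intervals downward, none upward, and the median was -0.36. *Gzma* and *Gzmb*, proteases of cytotoxic granules, were at 84.4 FPKM (62.8 to 102) in WT versus 32.4 (23.9 to 40.2) in GEF-H1-/- DCs and at 50.2 FPKM (40.3 to 59.9) in WT versus 24.6 (19.6 to 29.5) in GEF-H1-/- DCs. The CD3 genes *Cd3d* (3.98 FPKM in WT versus 2.52 in GEF-H1-/- DCs) and *Cd3e* (3.41 FPKM in WT versus 2.47 in GEF-H1-/- DCs) had overlapping intervals. Of 6 B cell genes, 1 had separate intervals, *Cd79b*, a chain of the B cell receptor complex, at 9.76 FPKM (7.47 to 12.02) in WT versus 5.05 (3.698 to 6.36) in GEF-H1-/- DCs. Of 7 genes of plasmacytoid DCs, 3 were lower and 1 higher with separate intervals, and *Siglech*, their defining marker, was under 1 FPKM in both groups. Of 3 tested erythroid genes, *Hbb-b1*, a beta globin with close copies that may share its reads, was at 5.82 FPKM (4.12 to 7.58) in WT versus 1.32 (0.567 to 2.08) in GEF-H1-/- DCs, and *Car2*, which many other cells also express, at 38.95 FPKM (30.02 to 47.8) in WT versus 20.99 (16.04 to 25.7) in GEF-H1-/- DCs. *Beta-s*, a beta globin copy near *Hbb-b1* but outside this list, went the other way and was higher by both rules. It was at 0.0458 FPKM (0 to 0.139) in WT versus 1.43 (0.624 to 2.22) in GEF-H1-/- DCs.

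Most interferon-induced genes had a negative difference. Of 15 tested guanylate-binding proteins and immunity-related GTPases, which attack vacuoles that hold microbes, all 15 had a negative difference, 6 had separate intervals downward and none passed both rules, and the median was -0.38. *Gbp2* (chr3:142620663-142638008) was at 58.9 FPKM (48.2 to 69.7) in WT versus 29.3 (23.9 to 34.6) in GEF-H1-/- DCs, a difference of -0.98. *Gbp4* was at 4.94 FPKM (3.95 to 5.93) in WT versus 2.68 (2.06 to 3.303) in GEF-H1-/- DCs, *Gbp6* at 1.88 FPKM (1.45 to 2.31) in WT versus 0.743 (0.534 to 0.955) in GEF-H1-/- DCs and *Tgtp1* at 3.47 FPKM (2.67 to 4.27) in WT versus 1.97 (1.47 to 2.48) in GEF-H1-/- DCs. Reads may be shared between these paralogs. In a broader list of 35 interferon-stimulated genes, 30 had a negative difference, 5 had separate intervals downward, none upward, and the median was -0.30. *Oas3* and *Oasl1*, of the oligoadenylate synthetase family, were at 6.19 FPKM (4.99 to 7.39) in WT versus 3.54 (2.81 to 4.26) in GEF-H1-/- DCs and at 2.19 FPKM (1.61 to 2.77) in WT versus 0.965 (0.647 to 1.29) in GEF-H1-/- DCs. *Ly6a*, which encodes the surface protein Sca-1, was the 1 member past both rules, at 76.8 FPKM (59.8 to 93.8) in WT versus 35.5 (28.6 to 42.4) in GEF-H1-/- DCs (-1.09). *Irf7*, which amplifies interferon responses, had a positive difference (0.38), and no member of 8 interferon regulatory factors had separate intervals.

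A common sequence lies before the starts of many of these genes. The motif GAAA, any 2 bases and GAAA again, the core of the interferon-stimulated response element (ISRE), was searched on both strands in RefSeq promoters of 300 bases (250 before to 50 after the start, GRCm38.p6), which matched 8390 of the 11133 tested genes. The motif was present in 9 of the 10 matched promoters of guanylate-binding proteins and immunity-related GTPases (90.0%). It was in 13 of 23 promoters of the broader interferon list (56.5%) and in 3.30% of all matched promoters. *Gbp4*, *Gbp6* and *Gbp8*, which were lower with separate intervals, had no matched promoter and were not searched. The matches with 20 bases on either side are printed 5′ to 3′ on the strand of the gene, with the motif in either orientation in capitals, for 3 members with separate intervals (*Gbp2*, *Gbp7*, *Tgtp1*) and for *Igtp*, whose intervals overlapped.
Gbp2, chr3:142620584-142620633, plus strand: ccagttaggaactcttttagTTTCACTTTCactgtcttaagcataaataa
Gbp7, chr3:142530263-142530312, plus strand: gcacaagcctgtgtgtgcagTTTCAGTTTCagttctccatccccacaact
Tgtp1, chr11:48992294-48992343, minus strand: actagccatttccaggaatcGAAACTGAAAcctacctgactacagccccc
Igtp, chr11:58199502-58199551, plus strand: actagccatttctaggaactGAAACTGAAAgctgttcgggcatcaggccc
The motif was thus present whether or not the gene differed, since *Igtp* was at 12.9 FPKM (10.4 to 15.5) in WT versus 12.5 (10.1 to 15.02) in GEF-H1-/- DCs. Among genes past both rules, the ISRE letters were in 9 of 84 matched promoters of higher genes (10.7%) and in 2 of 36 of lower genes (5.56%).

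The AP-1 motif TGANTCA, searched in the same way, was in 12 of 84 promoters of genes higher by both rules (14.3%), in 4 of 36 of lower genes (11.1%) and in 4.84% of all matched promoters. The matches below are those of higher genes of the protease, chemokine and chemokine receptor groups, shown because values of these groups are given above.
Mmp13, chr9:7272459-7272505, plus strand: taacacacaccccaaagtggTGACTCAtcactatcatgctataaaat
Mmp12, chr9:7347310-7347356, plus strand: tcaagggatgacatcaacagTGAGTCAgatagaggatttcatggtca
Ccl9, chr11:83578663-83578709, minus strand: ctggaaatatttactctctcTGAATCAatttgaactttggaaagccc
Serpinb2, chr1:107511309-107511355, plus strand: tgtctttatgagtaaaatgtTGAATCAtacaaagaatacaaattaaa
Ppbp, chr5:90768294-90768340, plus strand: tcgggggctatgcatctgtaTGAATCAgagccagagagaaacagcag
Ccr3, chr9:124021807-124021853, plus strand: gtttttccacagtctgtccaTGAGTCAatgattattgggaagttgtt
The first base of the motif was at position -35 in *Mmp13*, -44 in *Mmp12*, -53 in *Ccl9*, -94 in *Serpinb2*, -144 in *Ccr3* and -204 in *Ppbp*, counted from the RefSeq start. The E-box CACGTG was in 4.76% of promoters of higher genes, in none of 36 of lower genes and in 10.5% of all. The cyclic AMP response element TGACGTCA was in 2 promoters of higher and 1 of lower genes (3.33% of all), and a CArG box in 2 and none (1.22% of all). No motif contains the letters of another, and no match was taken as a bound site. Among the AP-1 factor genes, *Jun* was at 28.01 FPKM in WT versus 28.4 in GEF-H1-/- DCs, with overlapping intervals.

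Cholesterol synthesis genes were higher together. Of 23 tested, 22 had a positive difference, 9 had separate intervals upward and none downward, 1 passed both rules, and the median was 0.56. *Sqle*, squalene epoxidase (chr15:59315092-59331193), was at 11.3 FPKM (8.66 to 13.96) in WT versus 24.8 (19.02 to 30.5) in GEF-H1-/- DCs (1.07). *Cyp51*, lanosterol demethylase, was at 10.2 FPKM (7.72 to 12.6) in WT versus 19.1 (14.5 to 23.5) in GEF-H1-/- DCs. *Idi1*, an isomerase of the isoprenoid steps, was at 33.1 FPKM (24.2 to 39.05) in WT versus 56.8 (41.998 to 67.4) in GEF-H1-/- DCs. *Srebf2*, which drives the pathway, was at 52.7 FPKM in WT versus 60.5 in GEF-H1-/- DCs, with overlapping intervals. Fatty acid synthesis and LXR target genes had a median of -0.02, with *Fads2* higher (0.93) and *Scd1* lower (-0.61).

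All 24 ribosome biogenesis genes had a positive difference, with a median of 0.41, and 2 had separate intervals. *Nolc1*, a nucleolar chaperone, was at 25.8 FPKM (20.97 to 30.6) in WT versus 42.2 (32.001 to 54.03) in GEF-H1-/- DCs, and *Nop58*, of the box C/D complex, at 57.6 FPKM (47.01 to 68.1) in WT versus 87.4 (68.2 to 107) in GEF-H1-/- DCs. The other 22 members had overlapping intervals. In contrast, 24 mitotic genes had a median of -0.15 and no separate intervals, and of 24 genes of G1/S and DNA replication only *Ccnd2*, cyclin D2, had separate intervals, at 64.8 FPKM (51.8 to 77.5) in WT versus 34.9 (27.9 to 41.8) in GEF-H1-/- DCs.

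**Figure D3:**
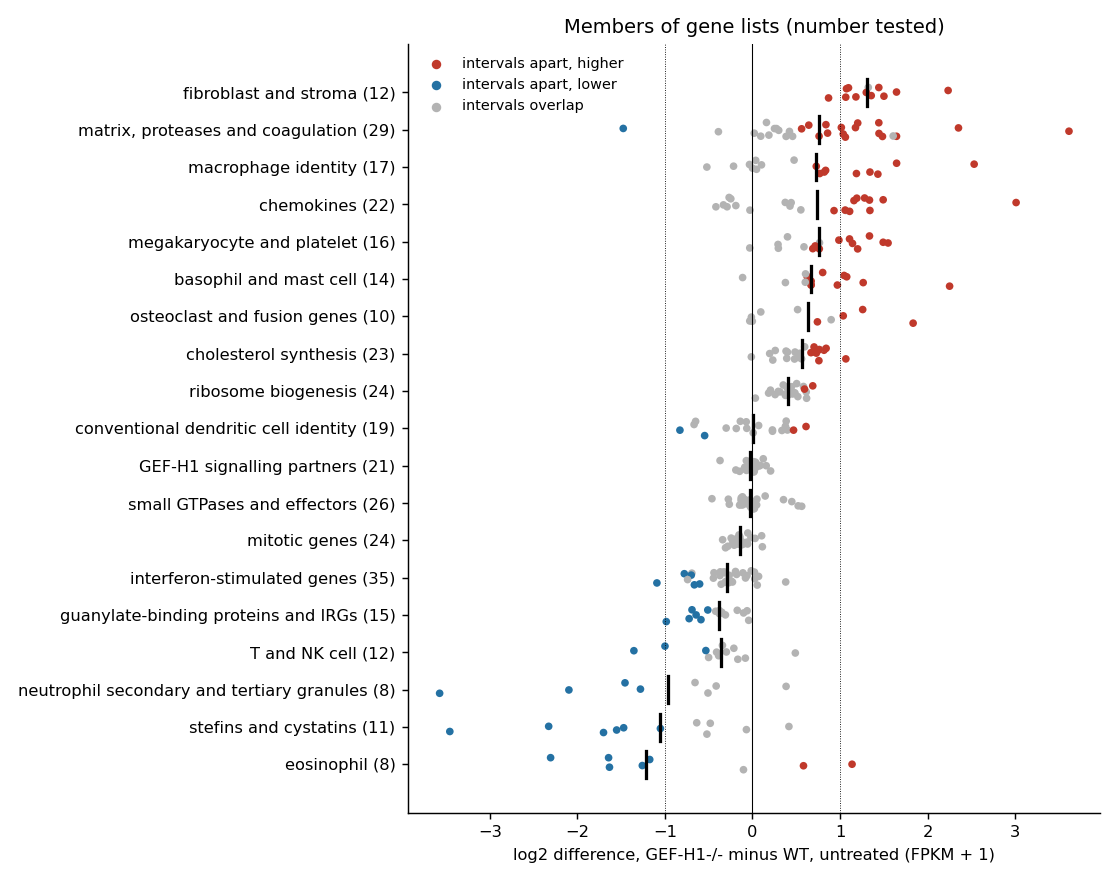
Log2 difference (GEF-H1-/- minus WT, untreated, FPKM + 1; x axis) of each tested member of 19 gene lists (rows, number tested in parentheses), with red for intervals apart upward, blue for intervals apart downward, grey for overlapping intervals, a black bar for the list median and dotted lines at 1 and -1. Matrix, macrophage, chemokine and basophil lists reach to the right (medians from 0.67 to 0.76), signaling and mitotic lists sit near 0, and stefin and eosinophil lists reach to the left (medians -1.052 and -1.22). The secondary granule list leaves out *Mmp9*, a granule gene that was higher. The platelet, stroma and secondary granule lists were written after the values were seen, and the others with earlier results of these data known. The place of every list is therefore a description only.

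For costimulation and antigen presentation, few genes had separate intervals in untreated cells. Over all tested genes the share was 4.66%, so that lists of this size would hold few in any case. Of 18 genes of costimulation and MHC class II, 1 had separate intervals and the median was -0.23. *Cd80* and *Cd86*, ligands of CD28, were at 37.2 FPKM (27.9 to 45.2) in WT versus 23.4 (17.5 to 28.7) in GEF-H1-/- DCs and at 50.8 FPKM (41.1 to 60.5) in WT versus 43.8 (35.5 to 52.1) in GEF-H1-/- DCs. *H2-Oa*, a brake on peptide loading, was at 27.6 FPKM (22.1 to 33.1) in WT versus 17.2 (13.4 to 21.1) in GEF-H1-/- DCs. Of 21 MHC class I genes, 20 had a negative difference, none had separate intervals, and the median was -0.20. None of 26 NF-κB targets had separate intervals, with a median of -0.14. Of 28 TNF superfamily genes, 3 were higher and 4 lower with separate intervals. *Tnfsf4*, which encodes OX40 ligand, had a difference of -0.98, and *Lta*, lymphotoxin alpha, was lower by both rules at 1.44 FPKM (0.929 to 1.95) in WT versus 0.2002 (0.0641 to 0.352) in GEF-H1-/- DCs. Of 13 genes of the interleukin-1 family, 3 were higher and 1 lower, with *Il1rn*, the antagonist of the interleukin-1 receptor, at 101 FPKM (78.7 to 124) in WT versus 197 (161 to 234) in GEF-H1-/- DCs, and *Il18bp*, a decoy for interleukin-18, at 14.5 FPKM (11.1 to 17.9) in WT versus 8.398 (6.32 to 10.5) in GEF-H1-/- DCs. *Il2ra*, the alpha chain of the interleukin-2 receptor, was lower (-0.89) and *Csf1*, the gene for M-CSF, higher (0.74).

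Among innate receptors, *Ly86*, which pairs with the TLR4 homolog CD180, was higher at 9.07 FPKM (6.31 to 11.5) in WT versus 28.5 (20.7 to 34.7) in GEF-H1-/- DCs, and *Tlr11* lower at 3.51 FPKM (2.597 to 4.39) in WT versus 1.802 (1.28 to 2.31) in GEF-H1-/- DCs, while the other 18 of 20 Toll-like receptor and adaptor genes had overlapping intervals. Of 14 inflammasome genes, *Nlrc4* alone had separate intervals, at 4.47 FPKM (3.53 to 5.42) in WT versus 2.37 (1.81 to 2.93) in GEF-H1-/- DCs. Separate intervals held for 4.66% of all tested genes, so that lists as short as these receptor lists would hold few in any case. Of 21 C-type lectin receptors, 5 were higher and 1 lower, and *Clec4d*, a receptor for mycobacterial glycolipid, passed both rules at 7.72 FPKM (5.81 to 9.61) in WT versus 17.6 (14.1 to 21.2) in GEF-H1-/- DCs. *Ly75*, the DC endocytic receptor DEC-205, was the lower one, at 14.97 FPKM (12.2 to 17.7) in WT versus 8.39 (6.79 to 9.99) in GEF-H1-/- DCs. Of 20 TREM, CD300 and SIRP receptors, 5 were higher and none lower. *Sirpb1a* and *Sirpb1b* were at 0.963 FPKM (0.539 to 1.37) in WT versus 4.79 (3.45 to 6.11) in GEF-H1-/- DCs and at 1.199 FPKM (0.7699 to 1.63) in WT versus 5.76 (4.35 to 7.14) in GEF-H1-/- DCs, and reads may be shared between them.

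Of 15 tubulin genes, *Tuba8* (0.61) and *Tubb2a* (0.57) were higher and *Tubb3* lower (-0.72), with medians near 0 over the list (0.01). Of 19 actin and SRF target genes, *Thbs1* and *Acta2* were higher (0.76 and 0.68). No member of the heat shock, glycolysis or housekeeping lists had separate intervals, against 4.66% of all tested genes. *Gapdh* was at 919.8 FPKM in WT versus 882 in GEF-H1-/- DCs, and *Actb* at 3076 FPKM in WT versus 2904 in GEF-H1-/- DCs. Of 8 tested genes that differ between C57BL/6 substrains, none had separate intervals. The Y-linked genes *Ddx3y* (15.7 FPKM in WT versus 15.2 in GEF-H1-/- DCs) and *Eif2s3y* (40.8 FPKM in WT versus 39.4 in GEF-H1-/- DCs) had overlapping intervals, and *Xist* was under 1 FPKM in each. Of the other lists, 3 of 19 prostaglandin and leukotriene genes, 1 of 14 integrins, 2 of 8 Fc receptor genes (*Fcer1a* and *Ms4a2*) and 2 of 18 NRF2 target and iron genes were higher, and 2 of 21 stress response genes (*Chac1* and *Trib3*) and 2 of 18 p53 targets (*Perp* and *Eda2r*) were lower. *Slc11a1*, a metal transporter of phagosomes, stood out among these at 5.93 FPKM (4.44 to 7.42) in WT versus 16.7 (12.8 to 20.4) in GEF-H1-/- DCs.

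The ansamitocin-P3 groups gave the same genotypes in libraries that were not part of the untreated comparison, although nothing in the sources used here says whether they came from other mice or cultures. Between the treated groups 1504 genes (13.5% of the 11133) had separate intervals, 782 higher (7.02%) and 722 lower (6.49%). Of the 163 genes past both rules without treatment, 156 had the same sign after treatment and 138 had separate intervals in the same direction (92 of the 110 higher and 46 of the 53 lower genes). The median difference of the higher genes was 1.26 without and 1.22 with treatment, and that of the lower genes -1.36 and -1.35. *Arhgef2* was at 45.9 FPKM (36.9 to 54.9) in WT versus 4.16 (3.22 to 5.11) in GEF-H1-/- DCs after treatment, with a difference of -3.18. *Retnla* was at 537 FPKM (347 to 556) in WT versus 2378 (1527 to 2473) in GEF-H1-/- DCs, *Camp* at 202 FPKM (133 to 214) in WT versus 18.7 (11.98 to 22.3) in GEF-H1-/- DCs and *Prg2* at 835 FPKM (635 to 1022) in WT versus 382 (293 to 469) in GEF-H1-/- DCs. In 21 genes the treated intervals overlapped, among them *Mmp12*, *Ccl2*, *Ccl7*, *Ccl9* and *Ppbp*, whose FPKM were higher in treated than in untreated WT DCs. *Mmp13* kept a difference of 0.82 against 3.62 without treatment. In 4 genes the intervals were apart in the opposite direction, namely *Clec4d*, *Cxcl3*, *Mmp19* and *Tgm2*.

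**Figure D4:**
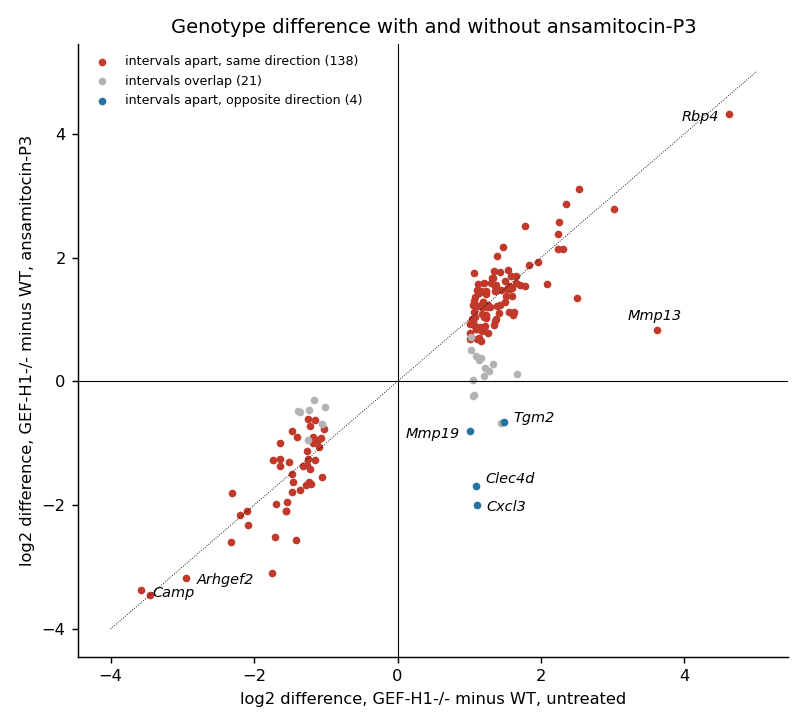
Log2 difference (GEF-H1-/- minus WT, FPKM + 1) without treatment (x axis) and after ansamitocin-P3 (y axis) for the 163 genes past both rules without treatment, 1 point per gene, with equality as a dotted line. Of these, 138 lie apart in the same direction (red), 21 overlap in the treated groups (grey) and 4 lie apart in the opposite direction (blue, named).

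For lists, the median after treatment was 0.59 for macrophage identity, 0.59 for basophil and mast cell genes, 0.79 for cholesterol synthesis, 0.97 for ribosome biogenesis, -1.06 for eosinophil genes and -1.79 for stefins and cystatins, on the same side of 0 as without treatment. For chemokines it was -0.08 against 0.74, with 4 higher and 6 lower by separate intervals, and for matrix, protease and coagulation genes 0.12 against 0.76. The lists written after the values were seen had medians of 1.38 for stroma and 0.65 for platelet genes, as a description only, since the lists were written with the differences known and 11 of the 12 stroma genes passed the filter through untreated GEF-H1-/- DCs alone.

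**Figure D5:**
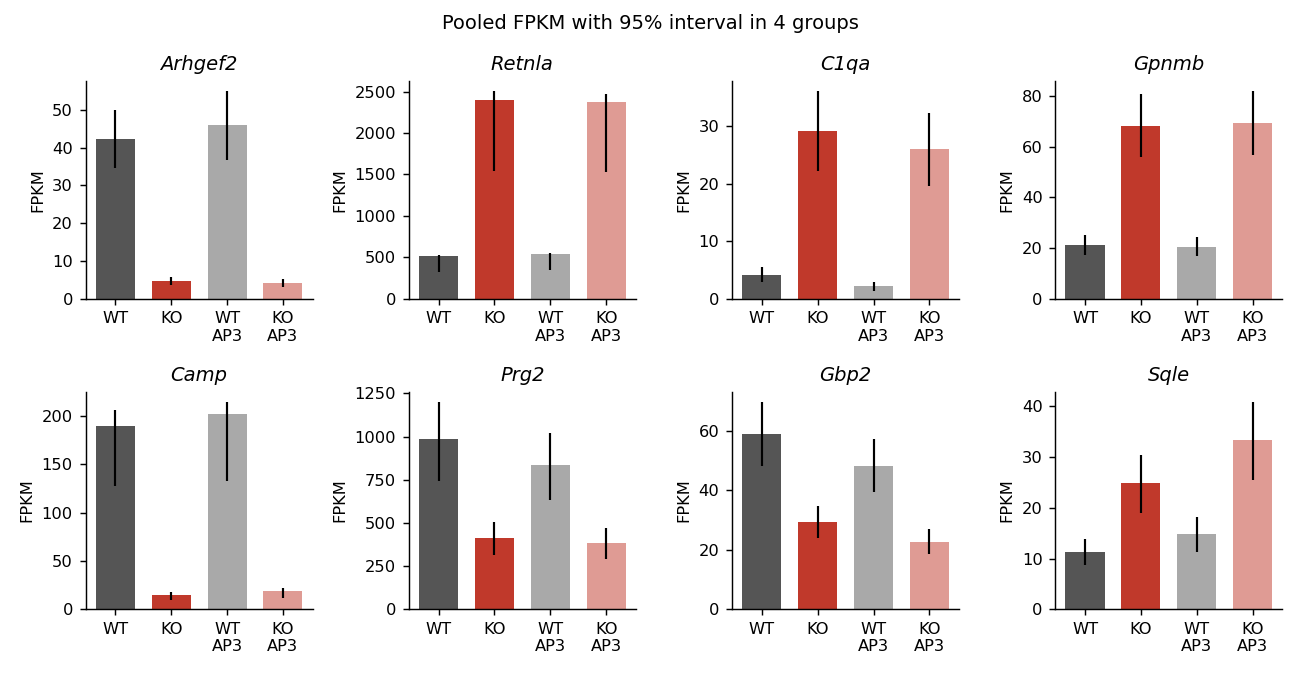
Pooled FPKM (bars, y axis from 0) with the 95% Cuffdiff interval (black lines) of 8 genes in WT and GEF-H1-/- (KO) DCs, untreated (full colour) and after ansamitocin-P3 (AP3, pale). *Arhgef2*, *Camp*, *Prg2* and *Gbp2* are lower and *Retnla*, *C1qa*, *Gpnmb* and *Sqle* higher in GEF-H1-/- DCs in both pairs.

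By position, 40 of the 163 genes lay in 16 clusters whose members were within 200 kb of each other, and 3 clusters held genes of both directions. How often tested genes in general lie so close was not counted, and some clusters hold close copies that may share reads. The count is therefore a description only. Besides the stefin locus the clusters included *Ccl2*, *Ccl7* and *Ccl8* on chromosome 11, *Ppbp*, *Pf4* and *Cxcl3* on chromosome 5, the C1q genes on chromosome 4, and *Mmp12* and *Mmp13* on chromosome 9. Around *Arhgef2*, 92 tested genes lay within 2 Mb, with a median of 0.04. Of these, 6 were higher and 3 lower with separate intervals, and 2 (*Fcrls* and *Cd5l*) passed both rules. Over all tested genes, 4.66% had separate intervals and 1.46% passed both rules. Whether genes near *Arhgef2* differ more often than others was not tested. *Lmna*, the gene for lamin A/C near *Arhgef2* (chr3:88481149-88503332), was at 20.5 FPKM (16.5 to 24.6) in WT versus 40.98 (33.2 to 48.7) in GEF-H1-/- DCs without and at 49.5 FPKM (39.9 to 59.2) in WT versus 46.2 (37.6 to 54.7) in GEF-H1-/- DCs with treatment. *Fcrls*, a macrophage surface receptor, was at 27.6 FPKM (22.4 to 32.8) in WT versus 59.1 (48.3 to 69.8) in GEF-H1-/- DCs.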

How the data were processed

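RNA-seq of 8 libraries (4 groups of 2) was analysed from 1 table of the whole series. The authors selected polyadenylated RNA for stranded libraries, read both ends and computed FPKM with Cuffdiff 1.05, and the submitters' processing notes name mm10. The aligner and annotation behind the table are not given in the sources used here. The deposited FPKM are 1 pooled value per gene and group, with a lower and upper 95% bound and a status. The columns of WT cells name no genotype and were assigned by elimination. Genes without the status OK in either group (107) and small RNA genes (61) were left out.

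Differences used log2(FPKM + 1), with Python 3.11.15, numpy 2.4.6 and pandas 2.3.3. Calls needed a log2 difference over 1 or under -1 and intervals that did not overlap. The script was tested on simulated data. Members and the 52 gene lists were chosen with earlier results of these data known, and 4 further lists after the values were seen. Genes were named by rule: *Arhgef2*, the 15 largest differences each way among called genes of at least 5 FPKM inside their own intervals, and up to 4 members per list with separate intervals (2 of the highest FPKM where none had); others named, and the promoters shown, were chosen after their values were seen. A few genes are not reported here. Promoters came from RefSeq (GRCm38.p6). Alternatives were pseudocounts of 0.1 and 5 FPKM, a filter of 5 FPKM, a threshold of 0.58 and scaling to the median ratio. Figures used matplotlib 3.10.9.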

Additional observations from a re-analysis of the deposited data

Results flagged for a closer look

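In 4 genes the difference between GEF-H1-/- and WT DCs had separate intervals in opposite directions without and with ansamitocin-P3. The change of direction itself was not tested, since each group has 1 pooled value. *Clec4d* was higher without treatment (log2 difference 1.1) and lower with it (-1.7), at 7.72 FPKM in WT and 17.6 in GEF-H1-/- DCs untreated and 79.5 and 23.9 treated. *Cxcl3*, a neutrophil attractant, went from 1.11 to -2.0, at 3.97 FPKM in WT and 9.73 in GEF-H1-/- DCs untreated and 145 and 35.4 treated. *Mmp19*, a matrix protease, went from 1.02 to -0.8, and *Tgm2* from 1.49 to -0.66. In all 4 genes FPKM was higher in treated than in untreated WT DCs.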

How the results depend on the processing

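Counts depended on the pseudocount and the threshold. With a pseudocount of 0.1 FPKM, 302 genes passed the threshold of difference and 264 both rules, with 5 FPKM 67 and 66, and with a threshold of 0.58, 550 and 444, against 173 and 163. Of the genes past both rules, those apart in the same direction in the treated pair numbered 215, 60 and 323 under these settings, against 138. With a filter of 5 FPKM, 327 genes had separate intervals, against 519. The *Arhgef2* difference was -2.30 with a pseudocount of 5 FPKM, against -2.95. Scaling by the median ratio (0.993) moved no count by over 1.5 times. No named gene with separate intervals turned direction. Of the list medians, 4 near 0 changed sign, that of actin and SRF targets with median ratio scaling (0.0058 against -0.0045) and, with a filter of 5 FPKM, those of the TNF superfamily (0.0746 against -0.0462), C-type lectin receptors (-0.0006 against 0.064) and conventional DC genes (-0.0651 against 0.0083). Of 444 repeats for named genes, 38 (in 24 genes) moved past the width of their intervals, all with another pseudocount, and of 208 list medians 1 moved, that of B cell genes with a filter of 5 FPKM. No paired analysis was possible because the table pools the libraries of a group, and for the same reason no library was left out. Depth is unknown, and genes near 1 FPKM have the widest intervals for their level.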
